A study of Mus musculus with 6 samples.

Results

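A set of 37 genes that encode collagens and other proteins of the extracellular matrix was followed in heart macrophages of mice without legumain. The members were chosen by name, as the rows of the deposited gene table whose symbol is one of the 37, out of 34745 genes listed. All 37 were found, each in a single row, and 31 had enough counts to be tested, among 12546 tested genes in all. The other 6 (Col14a1, Lum, Eln, Mfap5, Mgp and Postn) were too low to test and are given by their counts.

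Sequencing covered mRNA of cardiac macrophages sorted from Lgmn-KO mice, which lack legumain, an asparagine-specific protease of the lysosome, and of wild-type (WT) mice. All mice were C57BL/6 and 8 weeks old, and the series design places every library after myocardial infarction, although the labels name both ligation of the left anterior descending artery and a sham operation without saying which animal had which. The sources used here do not say how the legumain allele was made. Cells from enzyme-digested hearts were stained for CD45, CD64 and CD11b and for viability before sorting. There were 3 libraries of each genotype, numbered 1, 2 and 4 for Lgmn-KO and 1, 2 and 3 for WT. The labels do not tie libraries to individual mice. The p-values therefore describe variation among libraries, which may be technical. Library totals lay between 19546253 and 24086976 counts, and a gene with no count in a library could still hold 0.125 to 0.153 CPM (counts scaled to a common library size with TMM factors), the level of 3 counts, a limit that takes in counting error alone. Lgmn itself was at 78.7, 88.5 and 83.5 CPM in Lgmn-KO, against 2205, 2692 and 2277 CPM in WT, and it fell (log2 fold change -4.84, standard error 0.11, edgeR quasi-likelihood test, adjusted p = 3.23e-06).

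The extracellular matrix is the protein scaffold between cells. Fibrillar collagens give it tensile strength, basement membranes sheathe vessels and muscle cells, proteoglycans and glycoproteins space and anchor the fibres, and lysyl oxidases crosslink them. In the heart this scaffold is made mostly by fibroblasts, which expand after infarction and lay down the scar, while macrophages contribute some matrix proteins and remodel the rest.

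In Lgmn-KO macrophage libraries most matrix genes had lower counts than in WT, but no single member passed the test. The log2 fold change was negative in 28 of the 31 members tested (50.4% of all tested genes did), with a median of -0.68 against -0.002 over all tested genes. In 24 members the log2 fold change was below -0.5, as in 10.7% of all tested genes. With edgeR's quasi-likelihood test and Benjamini-Hochberg adjustment over all 12546 genes, 0 members were called lower and 0 higher at an adjusted p of 0.05 (0.478% and 0.311% of all tested genes were called lower and higher). An unadjusted p under 0.05 was found for 15 members, all with a negative log2 fold change, where 10.6% of all tested genes had such a p in that direction. Every Lgmn-KO library lay below every WT library in 15 of the 31 members, compared with 13.0% of all tested genes. DESeq2's Wald test called 6 members lower and 0 higher (4.15% of all genes were called lower by it). An adjusted p under 0.1 in the edgeR test was found for 4 members, all negative (2.58% of all tested genes had one in that direction). The 6 genes called by DESeq2 were Col4a1, Col4a2, Dcn, Sparc, Thbs1 and Tnc. Limma-voom with sample weights called 1 lower, which was Tnc, where it called 221 lower and 119 higher of all 12546 genes.

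**Figure D1:**
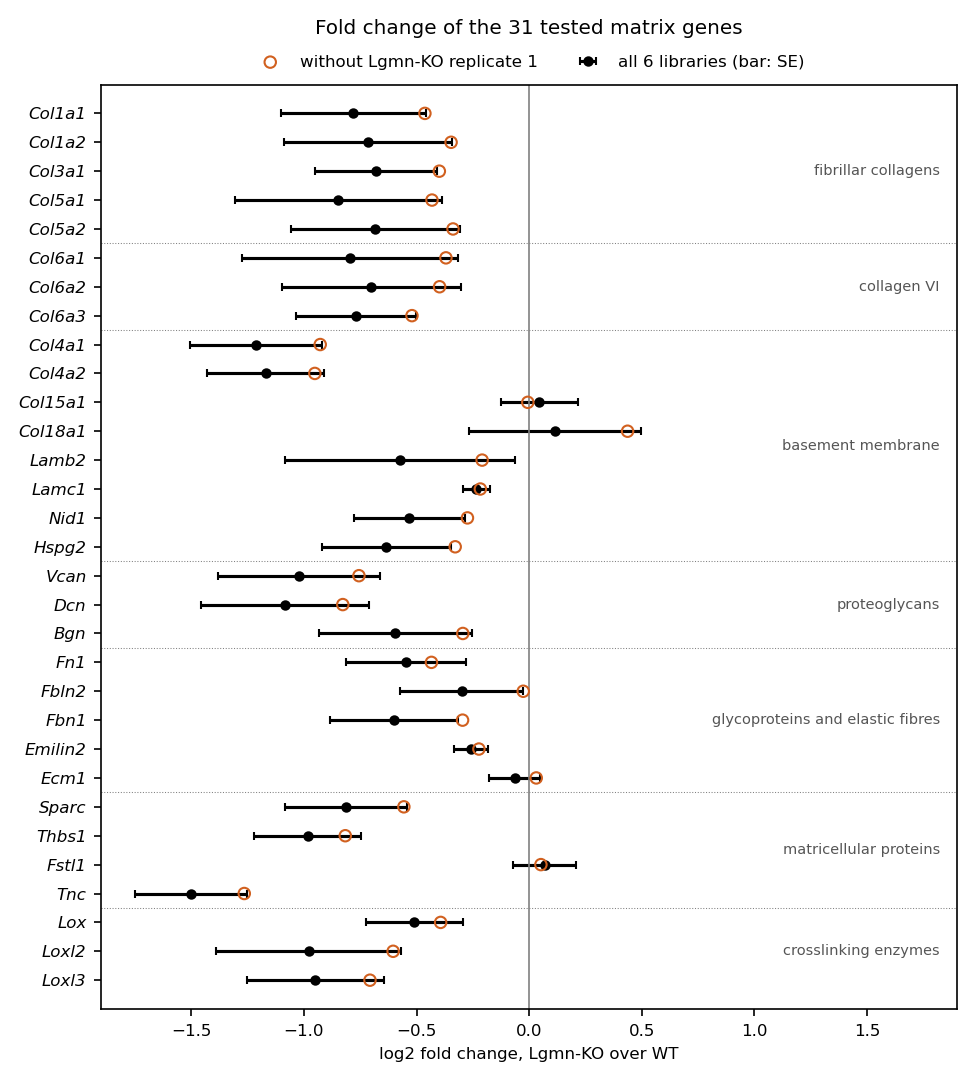
Log2 fold change (x axis, Lgmn-KO relative to WT) for each of the 31 tested matrix genes, grouped by role; filled points with standard error are from all 6 libraries and open circles are from the fit without Lgmn-KO replicate 1. Filled points of 28 genes lie left of 0, and the median is -0.68 with all libraries and -0.39 in the fit without Lgmn-KO replicate 1.

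Lgmn-KO replicate 1 was the lowest of the 6 libraries in 27 of the 31 members, whereas it was the lowest in 18.5% of all tested genes. The exceptions were Col15a1 and Fn1 (lowest in Lgmn-KO replicate 4, as 16.1% of all tested genes), Lox (lowest in Lgmn-KO replicate 2, as 14.5%) and Fstl1 (lowest in WT replicate 2, as 19.5%). Across members the level in Lgmn-KO replicate 1 had a median of 51.0% of the mean of Lgmn-KO replicates 2 and 4, and 99.7% over all tested genes. At a limit of 60%, which was set after the values were seen, 23 members lay below it and 8 at or above it. The 8 were Emilin2, Thbs1, Ecm1, Fstl1, Fn1, Lamc1, Lox and Col15a1. The first 5 had the highest mean FPKM, a value per gene length, of the members. Without Lgmn-KO replicate 1 the median of the same 31 members was -0.39, with 28 of them still negative. Without Lgmn-KO replicate 2 the median was -0.95, and no member was called in either fit. Among the WT libraries, replicate 2 was the highest of all 6 in 16 members, replicate 1 in 10 and replicate 3 in 2.

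**Figure D2:**
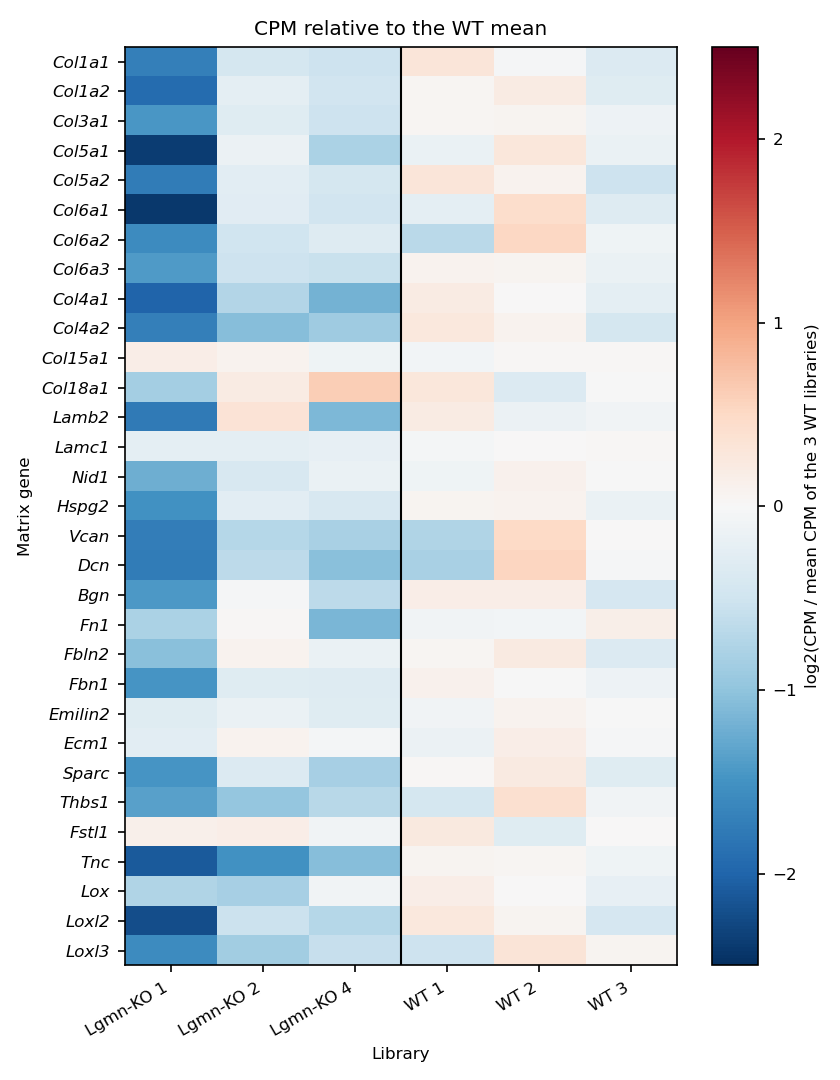
CPM of the 31 tested matrix genes in each library, as log2 of the ratio to the mean of the 3 WT libraries (colour, blue below and red above the WT mean). The column of Lgmn-KO replicate 1 is the lowest in 27 of 31 rows, while Col15a1, Fstl1, Ecm1, Emilin2 and Lamc1 stay pale across the columns.

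The same library, Lgmn-KO replicate 1, was also the lowest in summed markers of fibroblasts, mesothelial, mural and endothelial cells. It was not the lowest for every cell type listed, nor for endothelial markers without Kdr. These values are given beside the matrix genes because heart fibroblasts, mesothelial and mural cells make much of the matrix. Fibroblast markers that are not matrix genes summed to 5.08, 10.9 and 8.82 CPM in Lgmn-KO replicates 1, 2 and 4, against 13.5, 22.0 and 16.8 CPM in WT replicates 1, 2 and 3. The groups did not overlap. Pdgfra, the receptor that marks cardiac fibroblasts, made up most of that sum in Lgmn-KO (3.21, 7.51 and 6.69 CPM, against 9.15, 14.7 and 9.93 CPM in WT, adjusted p = 0.193, edgeR quasi-likelihood test), and Thy1, a surface protein shared by fibroblasts and T cells, was at 0.0987, 0.613 and 0.424 CPM in Lgmn-KO, against 1.80, 3.70 and 3.63 CPM in WT (adjusted p = 0.0575). Of the 16 fibroblast markers 5 were tested, Meox2 and Wif1 were at 0 in all libraries, and the defining cardiac fibroblast factor Tcf21 had 1 count in Lgmn-KO replicate 4 and 0 elsewhere.

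Mesothelial markers summed to 9.38, 22.3 and 24.6 CPM in Lgmn-KO, against 23.7, 26.6 and 17.0 CPM in WT, with overlap. Their 7 genes were all tested, and in Lgmn-KO replicate 1 they had a median of 38.6% of the mean of Lgmn-KO replicates 2 and 4. Mural cell markers summed to 14.9, 31.8 and 27.7 CPM in Lgmn-KO, against 38.7, 25.4 and 17.6 CPM in WT, most of it Acta2 and Tagln, with Higd1b at 0 in all libraries and 4 of 11 markers tested. For endothelial markers the sum was 24.7, 31.3 and 43.0 CPM in Lgmn-KO, against 42.9, 36.5 and 41.8 CPM in WT. Most of it was Kdr, and Tek, Emcn and Erg were at 0 in all libraries (3 of 15 tested). Without Kdr the endothelial sum was 3.21, 2.40 and 3.11 CPM in Lgmn-KO, against 13.1, 9.95 and 8.51 CPM in WT, most of it in WT Flt1, which fell (log2 fold change -2.79, adjusted p = 0.0150, edgeR quasi-likelihood test).

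Markers of 3 further cell types were measured. Platelet markers, from cells that store thrombospondin and Sparc, summed to 0.613 to 0.767 CPM in Lgmn-KO, against 0.487 to 0.709 CPM in WT, none of the 8 could be tested, and Gp1ba, Gp6 and Gp9 were at 0 in all libraries. Cardiomyocyte markers summed to 4.84 to 5.88 CPM in Lgmn-KO, against 4.67 to 5.83 CPM in WT (4 of 16 tested). Schwann cell markers summed to 83.8 to 92.4 CPM in Lgmn-KO, against 75.7 to 87.0 CPM in WT, nearly all of it Mbp, and without Mbp to 0.444 to 0.818 CPM in Lgmn-KO, against 0.542 to 0.694 CPM in WT, with Sox10 and Foxd3 at 0. The 9 macrophage markers summed to 23493, 20315 and 20186 CPM in Lgmn-KO, against 23265, 21576 and 23247 CPM in WT. That sum is carried by Lyz2. Marker by marker, Lgmn-KO replicate 1 was the lowest library for 6 of the 9, whereas it was the lowest in 18.5% of all tested genes. Its level across the 9 had a median of 89.5% of the mean of Lgmn-KO replicates 2 and 4, against 99.7% over all tested genes. Of the 9 markers 7 had a negative log2 fold change and 0 were called by edgeR's quasi-likelihood test (with 6 at an unadjusted p under 0.05, all negative, where 10.6% of all tested genes were, and 2 lower by DESeq2), with Csf1r at -0.74 (adjusted p = 0.0916), Cd14 at -0.99 (adjusted p = 0.0927) and Fcgr1, which encodes the sorting marker CD64, at -1.09 (adjusted p = 0.170). The part of these other cell types in the matrix values was not tested. In bulk libraries, fewer cells of a type and less RNA per cell cannot be told apart.

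**Figure D3:**
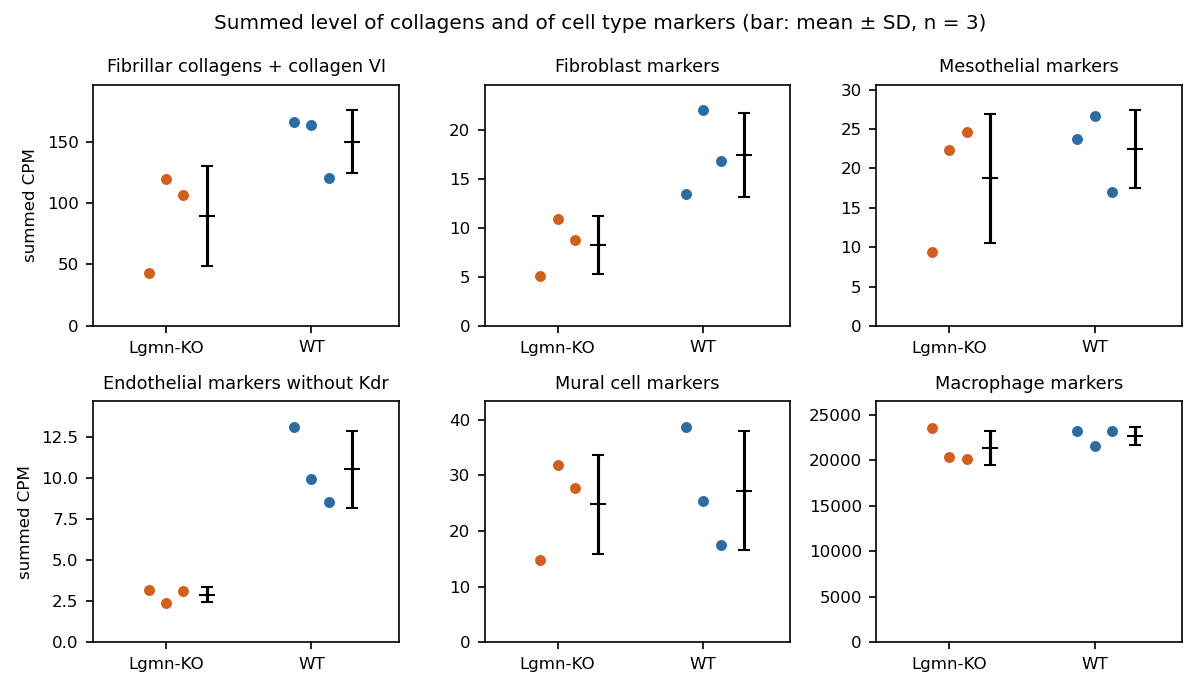
Summed CPM per library (y axis) of the 9 fibrillar collagen and collagen VI genes and of 5 marker lists in Lgmn-KO (left) and WT (right); points are replicates 1, 2 and 4 of Lgmn-KO and 1, 2 and 3 of WT, bars are mean ± SD (n = 3). Lgmn-KO replicate 1 is the lowest point for collagens (43.1 CPM), fibroblast (5.08), mesothelial (9.38) and mural cell markers (14.9). It is not the lowest for endothelial markers without Kdr (3.21) or for the macrophage sum (23493 CPM), which is carried by Lyz2. The full endothelial list, with Kdr, is not drawn and was lowest in Lgmn-KO replicate 1 (24.7 CPM).

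Levels of the members spanned a wide range. The FPKM scale divides by the gene length that the submitters used, which was not checked here, so comparisons between genes depend on it. On this scale Emilin2 and Thbs1 stood highest. In CPM, Fn1 averaged 267 in Lgmn-KO and 390 in WT, against 298 and 357 for Emilin2. Emilin2, which encodes an elastic fibre-associated glycoprotein, was at 75.9 ± 4.54 FPKM in Lgmn-KO and 91.6 ± 4.99 FPKM in WT, and Thbs1, which encodes thrombospondin-1, at 54.5 ± 12.2 FPKM in Lgmn-KO and 109 ± 31.7 FPKM in WT (SD, n = 3 each). In WT these neighbours did not differ beyond their spread. Ecm1 (29.6 ± 3.66 FPKM in Lgmn-KO and 31.2 ± 3.19 in WT), Fstl1 (20.8 ± 1.94 in Lgmn-KO and 20.1 ± 4.02 in WT) and Fn1 (14.7 ± 6.45 in Lgmn-KO and 21.7 ± 1.77 in WT) followed, and in WT the levels of Fstl1 and Fn1 lay within their spread of each other. Dcn, Lamc1, Sparc, Col1a1 and Fbln2 averaged 4.04 to 7.37 FPKM in Lgmn-KO and 5.02 to 15.7 FPKM in WT. Each of the remaining 21 tested members averaged at most 1.77 FPKM in Lgmn-KO, against most 3.20 FPKM in WT.

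**Figure D4:**
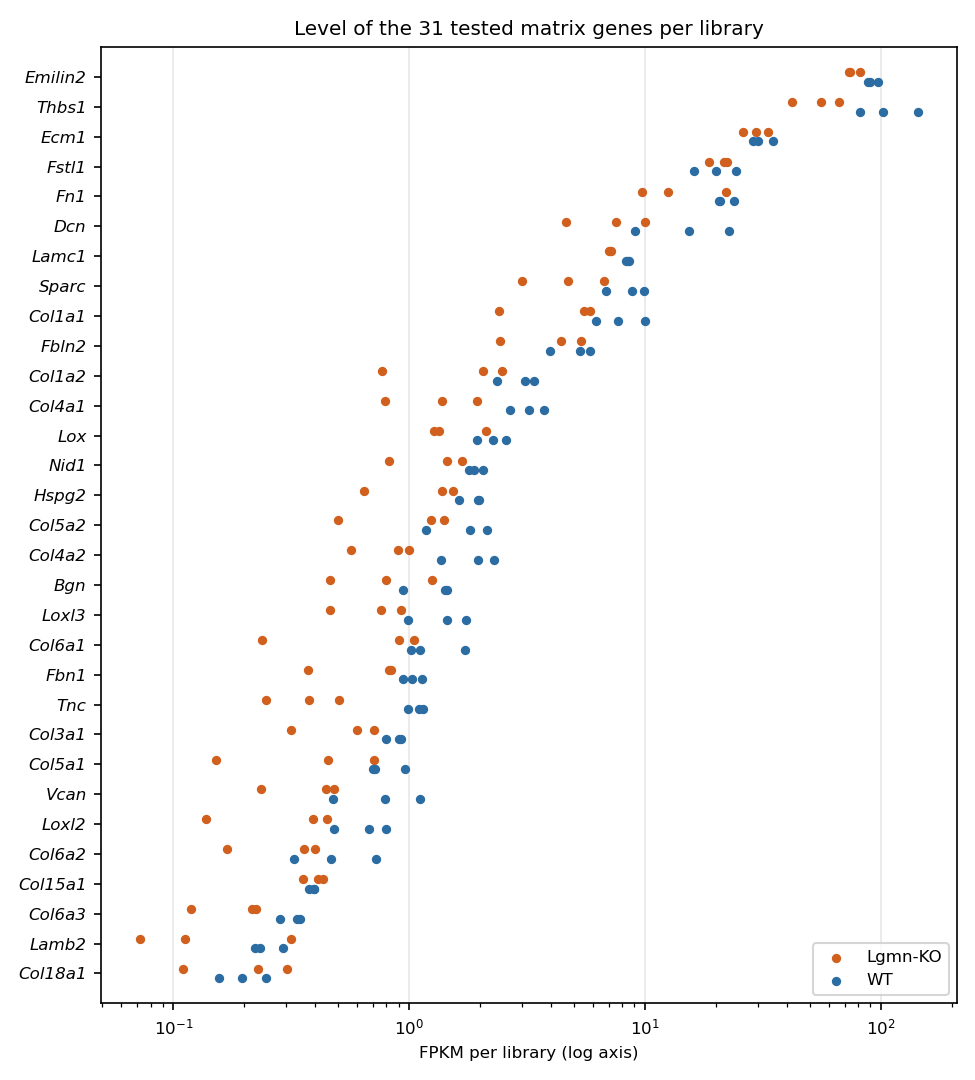
FPKM of the 31 tested matrix genes in each library (x axis, log scale), ordered by mean level with Lgmn-KO points above WT points in each row. Emilin2, Thbs1, Ecm1, Fstl1 and Fn1 lead the order, and Col18a1 (0.214 FPKM on average in Lgmn-KO and 0.200 in WT) ends it.

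Fibrillar collagens form the load-bearing fibres of the scar. Col1a1, which encodes the main chain of type I collagen, was at 16.7, 40.5 and 38.5 CPM in Lgmn-KO, against 67.7, 53.5 and 43.2 CPM in WT. The groups did not overlap, though Lgmn-KO replicates 2 and 4 came close to WT replicate 3. Its log2 fold change was -0.78 (standard error 0.32, adjusted p = 0.269, edgeR quasi-likelihood test), and -0.46 without Lgmn-KO replicate 1. Col3a1, whose type III collagen is prominent in early granulation tissue, was at 3.40, 7.56 and 6.51 CPM in Lgmn-KO, against 9.69, 9.77 and 8.55 CPM in WT, with a log2 fold change of -0.68 (adjusted p = 0.258). Col1a2, Col5a1 and Col5a2, the partner chain of type I and the chains of type V collagen that start fibre assembly, had log2 fold changes of -0.72, -0.85 and -0.68, and their groups overlapped. All 5 tested fibrillar genes were negative, 0 were called, and in Lgmn-KO replicate 1 they stood at 26.0% to 48.4% of the mean of Lgmn-KO replicates 2 and 4. The ratio of Col1a1 to Col1a2 in FPKM was 2.71 ± 0.384 in Lgmn-KO and 2.72 ± 0.478 in WT (SD, n = 3 each), a difference smaller than the spread of the libraries. The size of the ratio depends on the gene lengths behind FPKM and is compared only between groups. In CPM, Col1a1 averaged 31.9 and Col1a2 28.8 in Lgmn-KO, against 54.8 and 47.3 in WT. Col14a1, a collagen that sits on fibre surfaces, had 0, 0 and 4 counts in Lgmn-KO, against 0, 0 and 1 in WT.

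Collagen VI forms beaded microfilaments around cells. Col6a1 was at 1.09, 4.75 and 4.15 CPM in Lgmn-KO, against 4.92, 7.82 and 4.63 CPM in WT, where Lgmn-KO replicate 2 reached into the WT range. Its log2 fold change of -0.80 (standard error 0.48, adjusted p = 0.446, edgeR quasi-likelihood test) became -0.37 without Lgmn-KO replicate 1. Col6a3 was at 1.63, 3.07 and 2.97 CPM in Lgmn-KO, against 4.62, 4.58 and 3.88 CPM in WT, without overlap (log2 fold change -0.77, adjusted p = 0.198). Col6a2 had a log2 fold change of -0.70. The FPKM ratio of Col6a1 to Col6a2 was 2.21 ± 0.764 in Lgmn-KO and 2.66 ± 0.667 in WT. That of Col6a3 to Col6a1 was 0.316 ± 0.157 in Lgmn-KO and 0.261 ± 0.0605 in WT (SD, n = 3 each). The size of both ratios depends on the gene lengths behind FPKM. Col6a1 and Col6a2 lie 85.2 kb apart on chromosome 10 and are read from the same strand.

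**Figure D5:**
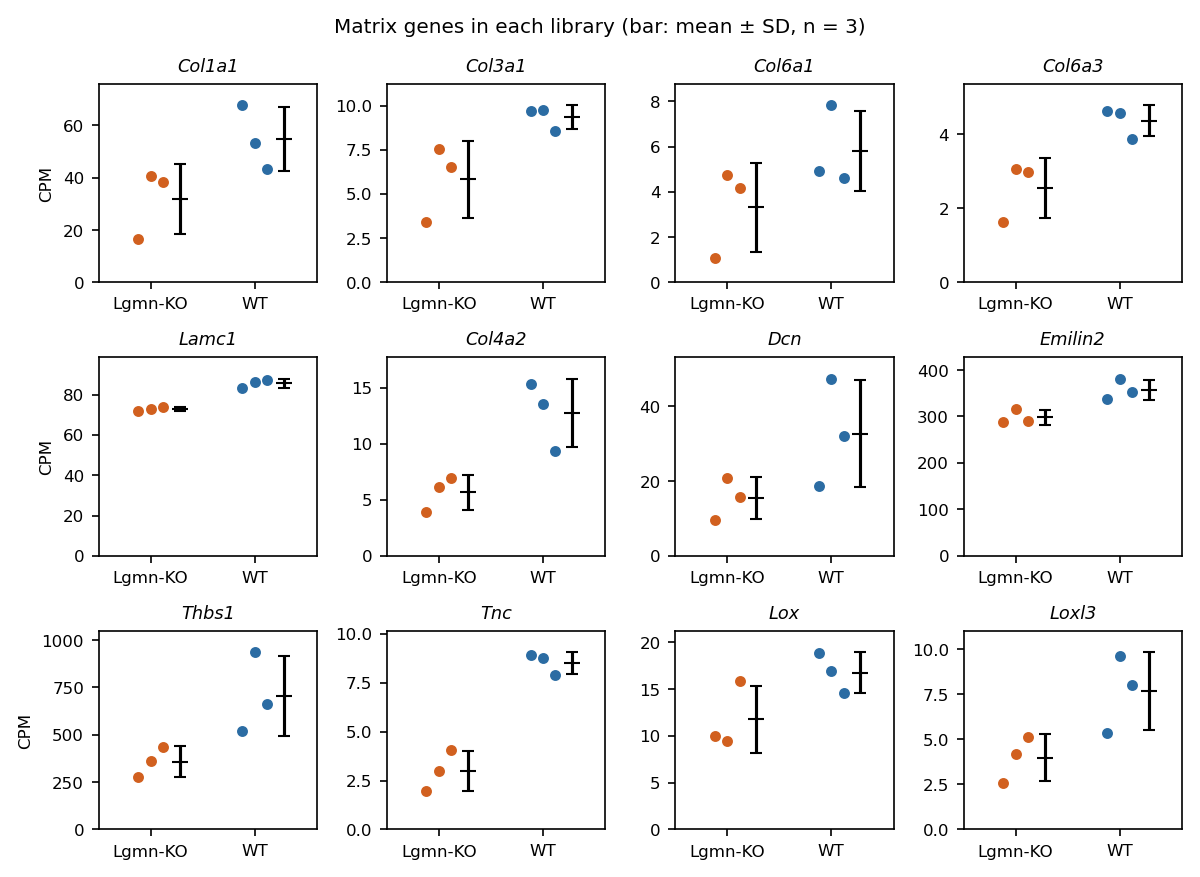
CPM per library (y axis, from 0) of the 12 matrix genes named by rule, Lgmn-KO left (replicates 1, 2 and 4) and WT right (replicates 1, 2 and 3), with mean ± SD (n = 3). Every Lgmn-KO point of Tnc (at most 4.05 CPM) lies far below the WT points (at least 7.88 CPM), while Emilin2 and Lamc1 are tightly grouped with a small gap.

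Among basement membrane genes the type IV collagens had the widest differences. Col4a2 was at 3.90, 6.13 and 6.93 CPM in Lgmn-KO, against 15.3, 13.5 and 9.38 CPM in WT. Every Lgmn-KO library was below every WT library, with a log2 fold change of -1.17 (standard error 0.26, adjusted p = 0.0844, edgeR quasi-likelihood test) and -0.95 without Lgmn-KO replicate 1. Its partner Col4a1 was at 5.58, 13.6 and 9.85 CPM in Lgmn-KO, against 25.8, 22.6 and 18.9 CPM in WT (log2 fold change -1.21, adjusted p = 0.0968). DESeq2 called both lower. The 2 genes lie head to head on chromosome 8, Col4a1 on the minus strand from 11198423 to 11312826 and Col4a2 on the plus strand from 11312805 to 11449287 (GRCm38), so their first exons overlap by 22 bases. Those shared bases, shown because a pair with a common start had like values, are given on the plus strand from RefSeq (GRCm38.p6, chr8:11312805-11312826), with capitals for the overlap.
Col4a1 and Col4a2 overlap: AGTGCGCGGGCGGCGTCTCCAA
Reads of this short stretch cannot be told apart, since the sources used here do not state whether counting used the strand. The FPKM ratio of Col4a1 to Col4a2 was 1.65 ± 0.445 in Lgmn-KO and 1.74 ± 0.185 in WT (SD, n = 3 each).

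The other basement membrane genes differed less. Lamc1, the laminin gamma-1 chain and the most abundant of them, was at 72.0, 72.6 and 73.8 CPM in Lgmn-KO, against 83.1, 86.3 and 87.4 CPM in WT. Libraries of a group were within a few CPM of each other and the groups did not overlap, yet the log2 fold change was only -0.23 (standard error 0.06, adjusted p = 0.118, edgeR quasi-likelihood test). Hspg2, which encodes perlecan, and Nid1, a linker of laminin and collagen IV, had log2 fold changes of -0.63 and -0.53 without overlap of the groups, and Lamb2, the laminin beta-2 chain, one of -0.57 with overlap, which was -0.21 without Lgmn-KO replicate 1 and -1.40 without Lgmn-KO replicate 2. Col15a1 was flat, at 4.05, 3.83 and 3.35 CPM in Lgmn-KO, against 3.46, 3.70 and 3.71 CPM in WT (log2 fold change 0.05, standard error 0.17, adjusted p = 0.926). Col18a1, the source of endostatin, differed by 0.11 on the log2 scale (adjusted p = 0.916), which changed sign in some fits with fewer libraries. Col18a1 lies 326 kb from Col6a1.

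Proteoglycans of the set bind collagen fibres or fill the space between them. Dcn, which encodes decorin, a small fibre-binding proteoglycan, was at 9.67, 20.8 and 15.8 CPM in Lgmn-KO, against 18.6, 47.3 and 32.0 CPM in WT. The lowest WT library, replicate 1, was below Lgmn-KO replicate 2, so the groups overlapped, and WT replicate 2 was by far the highest. The log2 fold change was -1.08 (standard error 0.37, adjusted p = 0.198, edgeR quasi-likelihood test) and DESeq2 called it lower. Vcan, the large proteoglycan versican that monocytes also make, had 4.74 to 9.56 CPM in Lgmn-KO, against 9.30 to 22.2 CPM in WT, with the same lowest and highest libraries (log2 fold change -1.02, adjusted p = 0.208). Bgn, the decorin relative biglycan, had a log2 fold change of -0.59. Lum, the keratan sulfate proteoglycan lumican, lies 47.3 kb from Dcn on the same strand of chromosome 10 and had 0, 0 and 0 counts in Lgmn-KO, against 1, 5 and 2 in WT. These neighbours therefore had very different levels in the same libraries, with 382, 1022 and 768 counts of Dcn in WT libraries.

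Glycoproteins of the matrix and of elastic fibres included Emilin2, the member with the highest mean FPKM. Emilin2 was at 287, 317 and 291 CPM in Lgmn-KO, against 337, 381 and 352 CPM in WT, without overlap, with a log2 fold change of -0.26 (standard error 0.08, adjusted p = 0.147, edgeR quasi-likelihood test). Ecm1, a secreted glycoprotein, was at 125, 159 and 144 CPM in Lgmn-KO, against 135, 167 and 146 CPM in WT, with a log2 fold change of -0.06 (standard error 0.11, adjusted p = 0.826). Fn1, which encodes fibronectin, the provisional matrix of the healing infarct and a macrophage product, was at 227, 397 and 177 CPM in Lgmn-KO, against 366, 374 and 430 CPM in WT. Lgmn-KO replicate 4 was its lowest library and Lgmn-KO replicate 2 lay inside the WT range (log2 fold change -0.55, adjusted p = 0.348). Fbn1, the microfibril protein fibrillin-1, had a log2 fold change of -0.60 without overlap, and Fbln2, which encodes fibulin-2, one of -0.30 that was -0.03 without Lgmn-KO replicate 1. Eln, the elastin gene, had 0, 3 and 0 counts in Lgmn-KO, against 4, 0 and 0 in WT. Mfap5 had at most 9 counts in Lgmn-KO, against 10 in WT, and Mgp at most 4 in Lgmn-KO and 7 in WT.

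Matricellular proteins, which signal to cells rather than bear load, included Tnc, the member with the smallest p. Tnc, which encodes tenascin-C, a protein that appears transiently in injured heart muscle, was at 1.97, 2.97 and 4.05 CPM in Lgmn-KO, against 8.91, 8.75 and 7.88 CPM in WT, from 40, 58 and 86 counts and 183, 189 and 189 counts. The highest Lgmn-KO library lay well below the lowest WT library. Its log2 fold change was -1.50 (standard error 0.25), the largest in size of the 31, with an adjusted p of 0.0507 in edgeR's quasi-likelihood test. Tnc was called lower by DESeq2, by limma-voom with sample weights (adjusted p = 0.0300), with library totals in place of TMM (adjusted p = 0.0436), without a filter on low counts (adjusted p = 0.0182) and without WT replicate 1 (adjusted p = 0.0386). It was not called with RLE size factors in place of TMM, nor in any other fit without 1 library. In the edgeR fits without 1 library its adjusted p reached 0.180, and it was 0.0879 without Lgmn-KO replicate 1. The log2 fold change ranged from -1.79 to -1.26 in the fits without 1 library. An antisense gene, 8030451A03Rik, shares exon bases with Tnc.

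Thbs1, an activator of latent TGF-beta that platelets and macrophages release, was the member with the most counts in WT. It was at 274, 360 and 436 CPM in Lgmn-KO, against 518, 935 and 663 CPM in WT, without overlap (log2 fold change -0.98, standard error 0.24, adjusted p = 0.0968, edgeR quasi-likelihood test). In the edgeR fits without 1 library the adjusted p ranged from 0.0320 (without WT replicate 1) to 0.236 (without Lgmn-KO replicate 1). Sparc, a collagen-binding protein needed for scar maturation, was at 13.4, 29.5 and 21.1 CPM in Lgmn-KO, against 38.2, 43.8 and 30.2 CPM in WT (log2 fold change -0.81, adjusted p = 0.186). Fstl1, a secreted factor of the injured heart, was at 133, 137 and 116 CPM in Lgmn-KO, against 145, 99.1 and 123 CPM in WT, a log2 fold change of 0.07 (standard error 0.14, adjusted p = 0.852). Postn, the periostin gene of activated fibroblasts, had 0, 10 and 14 counts in Lgmn-KO, against 3, 6 and 9 in WT.

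The 250 bases before the RefSeq start of Tnc (GRCm38.p6, minus strand, chr4:64047016-64047265) and of Sparc (minus strand, chr11:55420081-55420330) are shown for the matricellular genes that DESeq2 called and that have a RefSeq promoter entry, with capitals for matches to the motifs searched.
Tnc promoter: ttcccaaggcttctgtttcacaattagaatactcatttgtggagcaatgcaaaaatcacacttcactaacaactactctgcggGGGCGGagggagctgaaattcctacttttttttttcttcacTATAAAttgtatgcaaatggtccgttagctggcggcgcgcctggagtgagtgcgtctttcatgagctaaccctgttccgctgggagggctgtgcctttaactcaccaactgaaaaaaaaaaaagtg
Sparc promoter: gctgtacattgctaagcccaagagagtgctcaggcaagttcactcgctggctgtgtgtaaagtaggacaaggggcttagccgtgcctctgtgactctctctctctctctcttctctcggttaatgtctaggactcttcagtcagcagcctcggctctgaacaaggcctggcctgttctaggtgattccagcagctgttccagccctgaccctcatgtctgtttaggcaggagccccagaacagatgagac
The motifs were the TATA box TATAAA, the CCAAT box, the GC box GGGCGG and the AP-1 site TGANTCA, each on both strands. In Tnc, GGGCGG stood 167 to 162 bases and TATAAA 126 to 121 bases before the start, and they do not overlap, while the Sparc stretch held none of the 4. Over all 32851 promoter entries of the same length the shares with a match were 12.4% for TATAAA, 33.8% for CCAAT, 32.7% for GGGCGG and 6.75% for TGANTCA. Over the 28 entries of the 23 members that matched by symbol they were 17.9%, 21.4%, 60.7% and 7.14%. A match is a description of letters and not of binding.

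Lysyl oxidases start the crosslinks of collagen and elastin. Lox was at 9.97, 9.46 and 15.9 CPM in Lgmn-KO, against 18.9, 16.9 and 14.6 CPM in WT, where Lgmn-KO replicate 4 lay within the WT range (log2 fold change -0.51, standard error 0.22, adjusted p = 0.280, edgeR quasi-likelihood test). Loxl3 was at 2.57, 4.19 and 5.14 CPM in Lgmn-KO, against 5.35, 9.63 and 8.01 CPM in WT, narrowly without overlap (log2 fold change -0.95, adjusted p = 0.172). Loxl2 differed by -0.98 on the log2 scale (adjusted p = 0.276) and stood in Lgmn-KO replicate 1 at 32.8% of the mean of the other Lgmn-KO libraries. Exons of Loxl3 overlap those of Htra2 on the opposite strand, so reads of the pair cannot be told apart there. Other members also share exon bases with another gene, among them Thbs1, Fn1, Lox and Loxl2 (opposite strand) and Col3a1 (same strand). All 3 lysyl oxidase genes were lower at an unadjusted p under 0.05 in the edgeR test, as were 10.6% of all tested genes, and 0 were called.

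Genes that process collagen chains before secretion were mostly lower in value in Lgmn-KO. Of 25 listed 20 were tested, and 16 had a negative log2 fold change (50.4% of all tested genes did). In 7 every Lgmn-KO library lay below every WT library and in 1 every one lay above (13.0% and 10.7% of all tested genes). By edgeR's quasi-likelihood test 0 were called (0.478% and 0.311% of all tested genes were called lower and higher). An unadjusted p under 0.05 was found for 5, all negative (10.6% of all tested genes in that direction). DESeq2 called 2 lower (4.15% of all genes). The median log2 fold change was -0.28. Serpinh1, which encodes the collagen chaperone HSP47, was at 16.2, 24.9 and 25.2 CPM in Lgmn-KO, against 46.6, 53.2 and 40.1 CPM in WT (log2 fold change -1.08, standard error 0.18, adjusted p = 0.0519). P4ha1, a prolyl hydroxylase subunit, was at 54.3, 50.7 and 53.9 CPM in Lgmn-KO, against 65.4, 67.8 and 65.4 CPM in WT (adjusted p = 0.0740). The abundant general folding enzymes P4hb and Ppib had log2 fold changes of 0.12 and -0.16.

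Matrix receptors are the integrins, syndecans and others through which cells hold the scaffold. By edgeR's quasi-likelihood test 0 of 23 tested were called (0.478% and 0.311% of all tested genes were called lower and higher). An unadjusted p under 0.05 was found for 9, of which 8 were negative (10.6% of all tested genes were lower and 6.9% higher at that p). DESeq2 called 5 lower and 1 higher (521 lower, or 4.15%, and 283 higher of 12543 genes). The median log2 fold change was -0.48. The collagen receptor subunit Itga1 was at 1.97, 1.69 and 2.45 CPM in Lgmn-KO, against 4.33, 6.90 and 4.63 CPM in WT (log2 fold change -1.37, adjusted p = 0.0599). Cd44, the hyaluronan receptor, was at 346, 291 and 349 CPM in Lgmn-KO, against 428, 498 and 458 CPM in WT (log2 fold change -0.49, adjusted p = 0.0701). Itgb1, the common integrin beta-1 chain, was level at 688 ± 26.9 CPM in Lgmn-KO, against 706 ± 10.1 CPM in WT (SD, n = 3 each).

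TGF-beta is the main inducer of collagen genes in fibroblasts. Of 21 tested genes of its pathway 0 were called by edgeR's quasi-likelihood test (0.478% and 0.311% of all tested genes were called lower and higher). An unadjusted p under 0.05 was found for 6, of which 5 were negative (10.6% of all tested genes were lower and 6.9% higher at that p). DESeq2 called 2 lower and 1 higher (521 lower, or 4.15%, and 283 higher of 12543 genes). The median log2 fold change was -0.26. The ligand gene Tgfb1 was at 299 ± 14.0 CPM in Lgmn-KO, against 294 ± 4.10 CPM in WT, and the receptor gene Tgfbr2 at 250 ± 11.0 CPM in Lgmn-KO, against 255 ± 12.5 CPM in WT (SD, n = 3 each). Tgfb2 was at 2.62, 3.12 and 2.22 CPM in Lgmn-KO, against 0.925, 1.67 and 1.00 CPM in WT (log2 fold change 1.14, adjusted p = 0.125), and Lrrc32, which tethers latent TGF-beta to the cell surface, differed by -1.88 on the log2 scale (adjusted p = 0.102).

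Of 51 other matrix genes 26 were tested, 22 had a negative log2 fold change (50.4% of all tested genes did) and the median was -0.55. Tgfbi alone was called (0.478% and 0.311% of all tested genes were called lower and higher). This TGF-beta-induced adhesion protein fell to 33.4, 36.5 and 39.3 CPM in Lgmn-KO, against 126, 262 and 174 CPM in WT (log2 fold change -2.36, standard error 0.25, adjusted p = 0.0150, edgeR quasi-likelihood test). DESeq2 called 4 of the list lower (4.15% of all genes). Without any 1 of the 3 Lgmn-KO libraries, or without WT replicate 3, the edgeR test called 0 of the list. Spp1, which encodes osteopontin and is a macrophage product, was at 2184, 1971 and 2670 CPM in Lgmn-KO, against 1783, 1871 and 1839 CPM in WT, without overlap (log2 fold change 0.31, adjusted p = 0.214, edgeR quasi-likelihood test). Lamb1, the laminin beta-1 chain, differed by -1.05 on the log2 scale (adjusted p = 0.129) and Emilin1 one of -0.31 (adjusted p = 0.126).

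Of the 37 members, 6 in the authors' deposited table had a q below 0.05 and a negative log2 fold change, and 0 had a positive one (2.8% of its 17476 genes with a q were lower at that threshold). They are the same 6 that DESeq2 called here. The authors' deposited table marks 4 of them as down, Col4a1, Col4a2, Dcn and Tnc, as in 1.96% of its genes. Thbs1 (deposited log2 fold change -0.995, q = 0.000346) and Sparc (-0.82, q = 0.0341) carry no mark in the authors' deposited table.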

How the data were processed

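Per the file headers, 1 deposited table holds a count and an FPKM value per gene and library; the deposited counts are whole numbers with different totals and were taken as raw. The authors' deposited log2 fold change, p-value and q-value were only described. The submitters' processing notes list HISAT2, TopHat, TopHat2 2.0.9 and the human build hg38, but 98.6% of the gene IDs are in mouse GENCODE M21 (GRCm38), 80.8% of these at the same position, so coordinates are read as GRCm38. The sources used here name neither the read counter nor the authors' test.

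Genes kept by filterByExpr were scaled by TMM and tested with edgeR 4.0.16 (glmQLFit, glmQLFTest; R 4.3.3), comparing Lgmn-KO with WT without covariates, adjusted over 12546 genes. Alternatives used DESeq2 1.42.0, limma 3.58.1, other scalings and filters, and fewer libraries. The procedure was tested on simulated data. Replicate libraries differed 14.0 to 42.7 times more than sampling noise, so none was treated as a repeat deposit of another. Values per library are given for the tested member of highest mean FPKM and of smallest p in each of 7 roles, and for further members chosen after their values were seen. Other lists give up to 3 genes of smallest p and 2 of highest level. Members, lists and tests were chosen with earlier results of these data known.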

Additional observations from a re-analysis of the deposited data

How the results depend on the processing

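Counts depended strongly on the tool. DESeq2 called 521 genes lower and 283 higher in Lgmn-KO, limma-voom with sample weights 221 and 119, no filter on low counts 230 and 88, and an adjusted p of 0.1 gave 324 and 179, where the test used in the report gave 60 and 39. Library totals in place of TMM gave 118 and 47. Fits without 1 library gave 3 to 470 lower and 3 to 169 higher, the highest counts without WT replicate 1. Members called lower numbered 6 with DESeq2, 1 with limma, 1 with library totals (Tnc in both), 3 without a filter (Col4a2, Thbs1 and Tnc), 4 at 0.1 and 0 to 2 without 1 library (Thbs1 and Tnc without WT replicate 1). No member was called higher in any of these fits. Collagen synthesis enzymes called were 2 with DESeq2, 2 with limma, 1 with library totals, 1 without a filter, 2 at 0.1 and 0 to 1 without 1 library. Matrix receptors were 6, 2, 0, 2, 2 and 0 to 3 under the same settings. TGF-beta genes called were 3 with DESeq2 and 1 with limma. For other matrix genes the count was 4 with DESeq2, 2 with limma and 0 to 2 without 1 library: Tgfbi lost its call without any 1 Lgmn-KO library and without WT replicate 3. The cause was not tested.

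The groups share only the numbers 1 and 2, and nothing shows that these pair the libraries (correlation of deviations 0.122 and 0.0757). The replicate block on those 4 libraries called 27 genes lower and 6 higher and 0 members; the same libraries without the block, a fit added after seeing the data, called 2 and 2, 0 members and 0 other matrix genes.

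The sign of near-zero log2 fold changes was not stable. Over the fits without 1 library Col15a1 ranged from -0.0057 (without Lgmn-KO replicate 1) to 0.12, Col18a1 from -0.24 (without Lgmn-KO replicate 4; -0.03 without WT replicate 2) to 0.44, Ecm1 from -0.15 to 0.032 (without Lgmn-KO replicate 1; 0.02 without WT replicate 2) and Fstl1 from -0.063 (without WT replicate 2) to 0.21. Col18a1 was at -0.28 with the replicate block and -0.24 on those libraries without it. Members with few counts, such as Lamb2 and Col6a1, had the widest standard errors (0.51 and 0.48), and the 6 untested members had at most 14 counts in any library.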
